A study of Homo sapiens with 6 samples.

Results

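High mobility group (HMG) proteins are small, abundant chromatin proteins, and transcripts of 7 of them were followed in Ewing sarcoma cells in which FLI1 was targeted. The 7 genes, HMGA1, HMGA2, HMGB1, HMGB2, HMGB3, HMGN1 and HMGN2, were taken by symbol from a table of 27234 genes. Each had a row, and 6 of the 7 passed the filter on low counts that left 9420 genes for testing, HMGN2 being the exception. They were chosen with results of this contrast known, among them the lower level of HMGB1, so their differences are given as descriptions and carry no independent evidence.

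The cells were A673, an Ewing sarcoma line in which the EWS-FLI1 fusion carries the DNA-binding domain of the ETS factor FLI1 behind part of EWSR1, an RNA-binding protein. The 2 groups were cells given an siRNA to FLI1 (siFLI1, 3 libraries) and cells given a scrambled siRNA (siControl, 3 libraries), both grown in DME medium with fetal bovine serum, both carrying the fusion, and both harvested 48 h after transfection. All came from 1 cell line, and nothing in the labels ties libraries to separate cultures, so what p-values measure is the spread from library to library, possibly technical.

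HMG proteins fall into 3 families by the way they touch chromatin. HMGA proteins bind AT-rich DNA in the minor groove through AT-hooks and help assemble transcription factor complexes. HMGB proteins bend DNA with HMG boxes, and HMGB1 also acts outside the cell as a danger signal. HMGN proteins bind the nucleosome core itself and loosen the hold of linker histone. HMGA2 is an embryonic gene held low in most adult tissues, with the let-7 microRNAs as a well-known repressor, and HMGB2 and HMGB3 are abundant in dividing and immature cells.

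The sequences that frame the results are those at the start of 2 members and at the 3′ end of HMGA2. FLI1 and other ETS factors recognise a GGAA core, and EWS-FLI1 also binds runs of it. RefSeq start-site windows (250 bases before to 50 after a start, GRCh38.p14) were matched for 5 of the 7 members, 9 windows in all, without HMGA2 and HMGB2. The windows of HMGB1 and HMGN1 nearest to the starts of their rows are shown because these are the member that fell and a member whose level lay near that of the controls. Capitals mark GGAA or its reverse complement TTCC, and both sequences run 5′ to 3′ on the minus strand.
HMGB1, chr13:30617548-30617847: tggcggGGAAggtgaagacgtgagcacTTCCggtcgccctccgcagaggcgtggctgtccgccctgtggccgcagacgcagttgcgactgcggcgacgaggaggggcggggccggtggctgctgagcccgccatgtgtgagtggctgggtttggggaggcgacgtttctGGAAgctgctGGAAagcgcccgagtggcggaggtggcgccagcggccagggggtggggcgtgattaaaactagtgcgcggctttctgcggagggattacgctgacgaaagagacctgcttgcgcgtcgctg
HMGN1, chr21:39349039-39349338: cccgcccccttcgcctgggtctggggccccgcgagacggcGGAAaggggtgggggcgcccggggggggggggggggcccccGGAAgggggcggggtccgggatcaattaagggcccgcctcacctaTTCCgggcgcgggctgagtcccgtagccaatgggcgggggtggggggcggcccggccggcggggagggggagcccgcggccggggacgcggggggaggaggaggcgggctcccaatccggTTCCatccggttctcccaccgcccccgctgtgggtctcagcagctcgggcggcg
All motifs were counted on both strands. Each of these windows held 4 matches to GGAA and 1 match to CCGGAAG, a longer ETS form that contains the core. GGAA was found in 8 of the 9 member windows and in 95.5% of all 35116 windows, which held a median of 3. CCGGAAG was in 2 of the 9, in 10.3% of all windows and in 18.2% of the 10687 windows of tested genes. The tandem GGAAGGAA was in 0 of the 9, in 3.67% of all and in 3.69% of those of tested genes. HMGB1 has 2 further annotated starts, 151661 and 152357 bases downstream of that of its row, with 1 GGAA and 0 CCGGAAG each. The printed window is thus that of the most upstream of its 3 starts, and reads from the 3′ end do not tell which start was used. CCAAT, a box common in promoters of growth genes, was in 7 of the 9 windows against 34.6% of all and 35.2% of those of tested genes, and TTTGAA, a form of the cell cycle homology region, was in 2 of the 9 against 15.2% and 10.8%. These matches describe the letters of the windows and are not binding sites.

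HMGA2 also carries matches to let-7 in its 3′ untranslated region, and these are shown because it was the member with the largest positive difference. The mature let-7a is printed with its seed (bases 2 to 8) in capitals, and in each site the capitals mark CTACCTC, the reverse complement of that seed in DNA letters.
hsa-let-7a-5p: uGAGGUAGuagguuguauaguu
HMGA2 site 1, chr12:65963313-65963319: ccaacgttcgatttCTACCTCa
HMGA2 site 2, chr12:65964548-65964554: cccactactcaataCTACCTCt
HMGA2 site 3, chr12:65964960-65964966: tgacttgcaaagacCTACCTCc
HMGA2 site 4, chr12:65965813-65965819: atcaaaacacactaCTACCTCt
HMGA1 site 1, chr6:34245844-34245850: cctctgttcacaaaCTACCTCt
All sites lie on the plus strand of GRCh38, and the coordinates are those of the 7 capital bases. In the GENCODE transcript matched to each row, the untranslated region of HMGA2 is 3003 bases long and holds 4 sites, that of HMGA1 is 1347 bases long and holds 1, and those of the other 5 members hold 0. At least 1 site was found in 8.78% of 8471 tested genes with such a region, and 3 or more in 12 of them. Small RNAs were not measured here.

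The libraries read the 3′ ends of polyadenylated RNA, with 417145 to 1893606 counts assigned to genes in each, of which the 7 members took 362 to 1979. The lowest sum was that of siFLI1 replicate 3, which was 10.1% of the header total for that library, where the other 5 reached 41.2% to 61.0%. It stood apart on the first principal component (76.1 against −29.9 to 2.68). On the second, siFLI1 replicates 1 and 2 (36.4 and 37.4) were apart from the controls (−28.6 to −12.9), and siFLI1 replicate 3 (−18.9) lay among the controls. siControl replicate 1 stood apart on the third (−42.7 against −11.8 to 30.7). Values of the members are therefore also given without siFLI1 replicate 3 or without both. Levels are CPM after scaling by trimmed mean of M values (TMM). FLI1, the target, was at 44.0% of its control mean, and its log2 fold change of −1.16 ± 0.36 (SE, n = 3 against 3) did not pass (edgeR adjusted p = 0.17). Of 9 Ewing sarcoma markers, all had counts, 7 were lower at an unadjusted p below 0.05 (4.13% of all tested genes were), and NR0B1 and PRKCB passed the threshold. Markers of other cell types were at or near 0 for epithelium (summed level 0 to 8.03 CPM over the 6 libraries, with KRT5, KRT14 and KRT19 at 0 counts) and endothelium (2.93 to 9.40 CPM). Haematopoietic markers summed to 68.2 to 93.7 CPM in siFLI1 and 46.9 to 59.8 CPM in siControl, with CD3E at 0 counts. CD68 made most of the sum in 5 libraries, whereas siFLI1 replicate 3, which had the highest sum, held 42.8 CPM of PTPRC (16 counts), 37.5 CPM of CD68 (14 counts) and 13.4 CPM of HBB (5 counts). Of 6 fibroblast markers 4 were tested and 3 rose, the collagen genes COL1A1, COL1A2 and COL3A1. PDGFRB, at a log2 fold change of 1.68, passed in DESeq2 but not in edgeR (edgeR adjusted p = 0.117). DCN, with 9 counts in siFLI1 and 2 in siControl, and LUM, with 4 and 2, were near 0. Summed levels of the 6 were 2048 to 2249 CPM in siFLI1 and 521 to 597 CPM in siControl. The part of these markers in the values of the HMG genes was not tested.

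Of the 6 tested members, 1 passed an adjusted p of 0.05 as lower in siFLI1, HMGB1, and 0 as higher (edgeR quasi-likelihood test). Over all tested genes the share called was 1.45%, made up of 0.117% lower and 1.34% higher, and since the genes were chosen on this contrast nothing is read from these shares. DESeq2 and limma-voom likewise called HMGB1 and 0 members higher. At an unadjusted p below 0.05, HMGB1 was lower and HMGA2 higher, where 4.13% and 6.62% of all tested genes were. The median log2 fold change of the 6 was −0.21, against 0.01 over all tested genes. HMGB1 was the 1 member whose siFLI1 libraries all lay below all siControl libraries, as in 7.71% of tested genes, and no member lay wholly above, as in 8.93%.

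**Figure D1:**
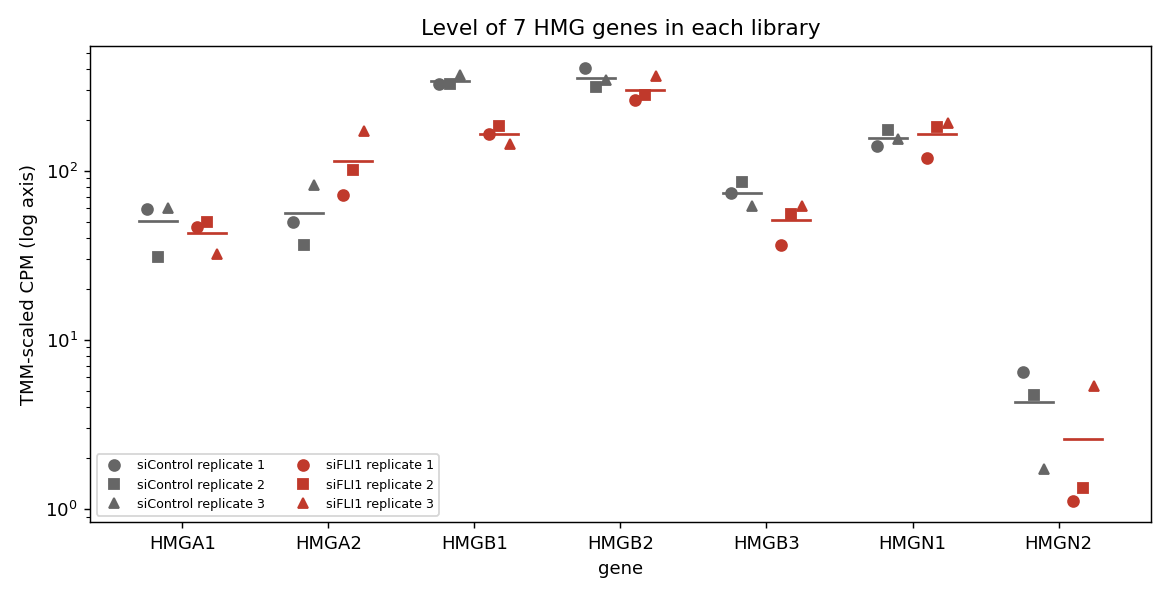
The 7 HMG genes by library, as TMM-scaled CPM (y axis, logarithmic). Grey is siControl and red siFLI1. Symbols mark the replicate number and bars the group mean. HMGB1 is the gene whose groups lie apart, at 145 to 185 against 326 to 368 CPM.

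Among the HMGB genes, HMGB1, the best known DNA-bending member, fell, and was lower in each siFLI1 library. Its row (NM_001313893) spans chromosome 13, 30457916 to 30617597, on the minus strand of hg38. The siFLI1 libraries, in replicate order, gave 296, 278 and 54 counts, or 165, 185 and 145 CPM. The siControl libraries gave 609, 557 and 431 counts, or 328, 326 and 368 CPM. The lowest control library was thus well above the highest siFLI1 library, and the spread within each group was small. Means were 165 ± 20.1 CPM in siFLI1 and 341 ± 23.9 CPM in siControl (SD, n = 3), which leaves 48.4% of the control level. The fitted log2 fold change was −1.04 ± 0.24 (SE; 95% interval −1.56 to −0.52; edgeR adjusted p = 0.0497), and 2.85% of tested genes had a lower one. A call so close to the threshold turned on small changes: of 16 other settings that could alter it, 9 called it and 7 did not, while its log2 fold change stayed between −1.16 and −0.96. Of the 6 fits that left out 1 library, that without siControl replicate 1 called it, and the other 5 gave an adjusted p of 0.137 to 0.221 (edgeR). Without siFLI1 replicate 3 it was −0.96 (edgeR adjusted p = 0.137), and without both libraries that stood apart it was −1 (edgeR adjusted p = 0.0281). With the replicate number as a block it was −1.04 (edgeR adjusted p = 0.149). In bulk RNA, fewer cells of a kind and less RNA per cell cannot be told apart.

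HMGB2, the closest relative of HMGB1 and a gene of dividing cells, did not pass. Its row (NM_001130689) lies on chromosome 4, 173331376 to 173333769, minus strand. It had levels of 263, 282 and 361 CPM in siFLI1 replicates 1, 2 and 3 and of 408, 313 and 346 CPM in siControl replicates 1, 2 and 3. siFLI1 replicate 3 lay above 2 of the control libraries, so the groups overlapped. The means were 302 ± 52.4 and 356 ± 48.2 CPM (SD, n = 3), with a log2 fold change of −0.24 ± 0.25 (SE; 95% interval −0.79 to 0.30; edgeR adjusted p = 0.817). Left-out libraries moved it between −0.38 and −0.15.

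HMGB3, an X-linked member found in stem and progenitor cells, had lower values in siFLI1 that did not pass. Its row (NM_001301229) spans chromosome X, 150983275 to 150990775, plus strand. Levels were 36.3, 55.8 and 61.6 CPM in siFLI1 replicates 1, 2 and 3 and 74.3, 86.1 and 61.5 CPM in siControl replicates 1, 2 and 3. The overlap was narrow: siFLI1 replicate 3, from 23 counts, was level with siControl replicate 3, from 72. The fitted log2 fold change was −0.57 ± 0.31 (SE, n = 3 against 3; 95% interval −1.23 to 0.09; edgeR adjusted p = 0.56). It was −0.69 without siFLI1 replicate 3 and −0.35 without siFLI1 replicate 1. Summed over the 3 HMGB genes, levels were 465, 522 and 568 CPM in siFLI1 replicates 1, 2 and 3 and 810, 725 and 776 CPM in siControl, so the sums of the groups did not overlap. The siFLI1 mean of the sum, 518 ± 51.6 CPM, was 67.3% of the control mean of 770.3 ± 42.8 CPM (SD, n = 3), and HMGB1 made most of the difference.

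HMGA2 and HMGA1, the AT-hook genes, had differences of opposite sign, and neither passed. HMGA2 (NM_003483; chromosome 12, 65824460 to 65966291, plus strand) gave 128, 152 and 64 counts in siFLI1 replicates 1, 2 and 3, or 71.6, 101 and 171 CPM. The siControl libraries gave 93, 62 and 97 counts, or 50.1, 36.3 and 82.9 CPM. All but 1 of the siFLI1 libraries lay above every control, the exception being replicate 1, which was below siControl replicate 3. The highest value came from siFLI1 replicate 3, the library with the fewest counts, where the counting interval alone (95%, exact Poisson) ran from 132 to 219 CPM. Means were 115 ± 51.3 CPM in siFLI1 and 56.4 ± 23.9 CPM in siControl (SD, n = 3). The fitted log2 fold change was 0.98 ± 0.38 (SE; 95% interval 0.18 to 1.79; edgeR adjusted p = 0.326), and 92.9% of tested genes had a lower one. It was positive in each of the 16 other settings and called in 0 of them, and without siFLI1 replicate 3 it was 0.63 (edgeR adjusted p = 0.59). The row overlaps 2 rows on the other strand, RPSAP52 with 30 counts and LOC100129940 with 11 counts over the 6 libraries, against 596 for HMGA2.

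HMGA1 (NM_001319077; chromosome 6, 34236800 to 34246231, plus strand), a relative often overexpressed in tumours, had levels of 46.4, 49.8 and 32.1 CPM in siFLI1 replicates 1, 2 and 3. The siControl libraries were at 59.8, 31.0 and 59.8 CPM. siControl replicate 2 was the lowest of all 6 libraries, so the groups lay within each other. The fitted log2 fold change was −0.19 ± 0.35 (SE, n = 3 against 3; 95% interval −0.93 to 0.56; edgeR adjusted p = 0.903). Without siFLI1 replicate 3, where it had 12 counts, it was −0.06, and without both libraries that stood apart it turned to 0.09. Summed HMGA levels were 118, 151 and 203 CPM in siFLI1 and 110, 67.3 and 143 CPM in siControl replicates 1, 2 and 3, which overlapped.

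HMGN1, a nucleosome-binding protein encoded on chromosome 21 (NM_004965; 39342315 to 39349121, minus strand), was near its control level. It had levels of 119, 183 and 193 CPM in siFLI1 replicates 1, 2 and 3 and of 139, 175 and 155 CPM in siControl replicates 1, 2 and 3. The siFLI1 libraries included both the lowest and the highest of the 6 values. The fitted log2 fold change was 0.06 ± 0.27 (SE, n = 3 against 3; 95% interval −0.51 to 0.63; edgeR adjusted p = 0.961), and its sign changed with the settings. HMGN2 (NM_005517; chromosome 1, 26472411 to 26476642, plus strand) was too low to test. It had 2 counts in each siFLI1 library and 12, 8 and 2 counts in siControl replicates 1, 2 and 3. Scaled for depth, HMGN2 was at 1.1, 1.3 and 5.4 CPM in siFLI1 and 6.5, 4.7 and 1.7 CPM in siControl replicates 1, 2 and 3. The groups overlapped, with siFLI1 replicate 3 above siControl replicates 2 and 3, and the siFLI1 mean was 60.7% of the control mean. By pooled counts, 6 against 22, which weigh deeper libraries more, the ratio of siFLI1 to siControl was 0.352 (95% exact interval 0.117 to 0.895, counting error only). With no filter its log2 fold change was −1.07 ± 1.30 (SE; edgeR adjusted p = 0.79).

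**Figure D2:**
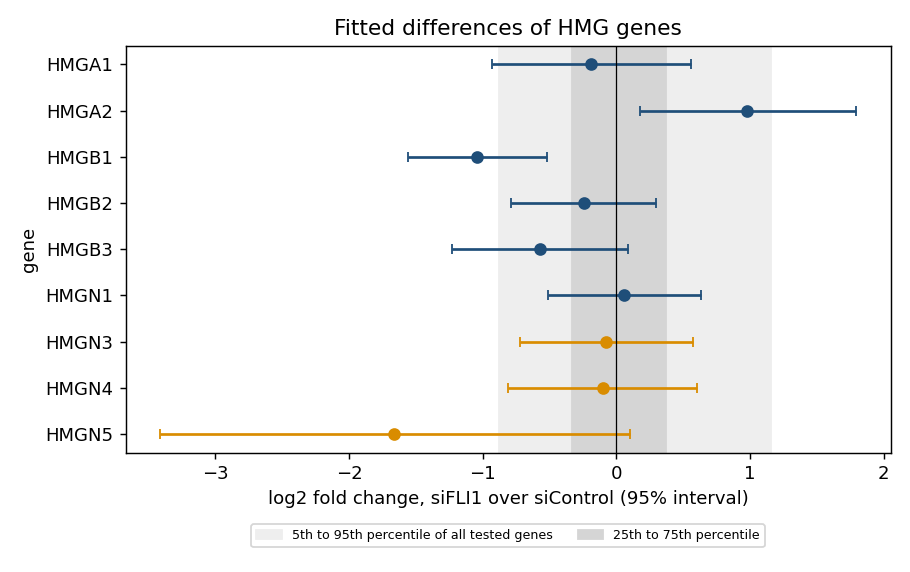
Log2 fold change of siFLI1 over siControl with its 95% interval for the 6 tested HMG genes (blue) and for HMGN3, HMGN4 and HMGN5 (orange). Grey bands hold the middle of all 9420 tested genes, from −0.88 to 1.16 for the 5th to 95th percentile and from −0.33 to 0.37 for the 25th to 75th. HMGB1, at −1.04, and HMGN5, at −1.66 with an interval from −3.41 to 0.10, lie outside the wider band.

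The remaining genes of the HMGB and HMGN families were HMGN3, HMGN4, HMGN5 and HMGB4. Of the 3 that were tested 0 passed in edgeR, in DESeq2 or by limma-voom, and 0 had an unadjusted p below 0.05 in edgeR. DESeq2 gave no adjusted p for HMGN5 (DESeq2 unadjusted p = 0.0778), so it could not pass there. HMGN3 had means of 168 ± 68.1 CPM with siFLI1 and 173 ± 29.6 CPM with the control (SD, n = 3), and its log2 fold change of −0.08 ± 0.30 (SE) was near 0. HMGN4 was at 77.1 ± 24.2 and 82.1 ± 23.6 CPM, with −0.10 ± 0.33. HMGN5, a member with a long acidic tail, had 5, 1 and 4 counts in siFLI1 and 24, 20 and 7 in siControl replicates 1, 2 and 3. In the same order HMGN5 was at 2.80, 0.664 and 10.7 CPM and at 12.9, 11.7 and 5.98 CPM. siFLI1 replicate 3 lay above siControl replicate 3, so the groups overlapped. Its fitted log2 fold change, −1.66 ± 0.82 (SE; 95% interval −3.41 to 0.10; edgeR adjusted p = 0.50), went to −2.48 without siFLI1 replicate 3 and −0.92 without siFLI1 replicate 2. HMGB4 had 0 counts in all 6 libraries.

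HMG genes have many processed pseudogenes, which can draw or lend reads, so likeness to other genes was measured on the last 500 bases of each transcript. GENCODE lists 48 pseudogenes named for HMGB1, 36 for HMGN2, 31 for HMGN1, 29 for HMGB3, 7 for HMGA1, 1 for HMGB2 and 0 for HMGA2. For HMGB1, HMGB2, HMGB3 and HMGA2, 0% of the 50-base words in that stretch occurred in a transcript of another gene. The share was 3.55% for HMGN1 and 8.65% for HMGA1, each with 1 other gene. It was highest for HMGN2, at 23.1% and 3 other genes, and HMGN2 is the member with few counts. Over 8812 tested genes the median was 0%, and 8.94% of them had more than 10% of such words shared. Exact words of that length do not cover reads with mismatches, and the length of the reads is not stated in the labels. Reads from bases upstream of the last 500 are not covered either, and the 3′ untranslated region of HMGB1 is 2610 bases long. The table held 3 pseudogene rows named for members, HMGA1P7, HMGB3P1 and HMGN2P46, with 0, 5 and 27 counts over the 6 libraries. None was named for HMGB1, so adding them to their parents does not test it. HMGB3 was then at −0.56, and HMGN2 passed the filter with a log2 fold change of −0.76 (edgeR adjusted p = 0.761).

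Ratios of counts between members within a library do not depend on how libraries are scaled. The ratio of HMGB1 to HMGB2 counts was 0.63, 0.656 and 0.40 in siFLI1 replicates 1, 2 and 3, and 0.804, 1.04 and 1.06 in siControl. Every siFLI1 library was below every control library, and the closest pair, siFLI1 replicate 2 and siControl replicate 1, had counting intervals (95%, exact binomial) of 0.562 to 0.765 and 0.722 to 0.896, which overlapped. The ratio of HMGB1 to HMGN1 counts was 1.40, 1.01 and 0.75 in siFLI1 and 2.35, 1.87 and 2.38 in siControl replicates 1, 2 and 3. Here the groups were farther apart than their spread, with a log2 difference of −1.10 between means of 0.03 ± 0.45 and 1.13 ± 0.20 (SD, n = 3). HMGB3 to HMGN1 was 0.307, 0.305 and 0.319 in siFLI1 against 0.533, 0.493 and 0.398 in siControl, again without overlap, although the level of HMGB3 itself overlapped. HMGB2 to HMGN1 overlapped, at 1.54 to 2.22 and 1.79 to 2.92. So did HMGB1 to HMGB3, at 2.35 to 4.55 in siFLI1 and 3.79 to 5.99 in siControl. HMGB3 to HMGB2 and HMGA1 to HMGN1 overlapped as well, whereas HMGA2 to HMGN1 was higher in every siFLI1 library.

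The ratio of HMGA1 to HMGA2 counts was 0.648, 0.493 and 0.188 in siFLI1 replicates 1, 2 and 3, and 1.19, 0.855 and 0.722 in siControl. The groups did not overlap, and siFLI1 replicate 3 was the lowest, from 12 and 64 counts. HMGA2 to HMGB1 differed most of the 10 pairs computed, at 0.432, 0.547 and 1.19 in siFLI1 and 0.153, 0.111 and 0.225 in siControl, a log2 difference of 2.06. These pairs were formed with the members' differences known, and with 3 against 3 libraries the smallest p that a two-sided exact permutation test can give is 0.1, so no test was made of them. They describe the counts of these 6 libraries and do not tell which gene of a pair changed.

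**Figure D3:**
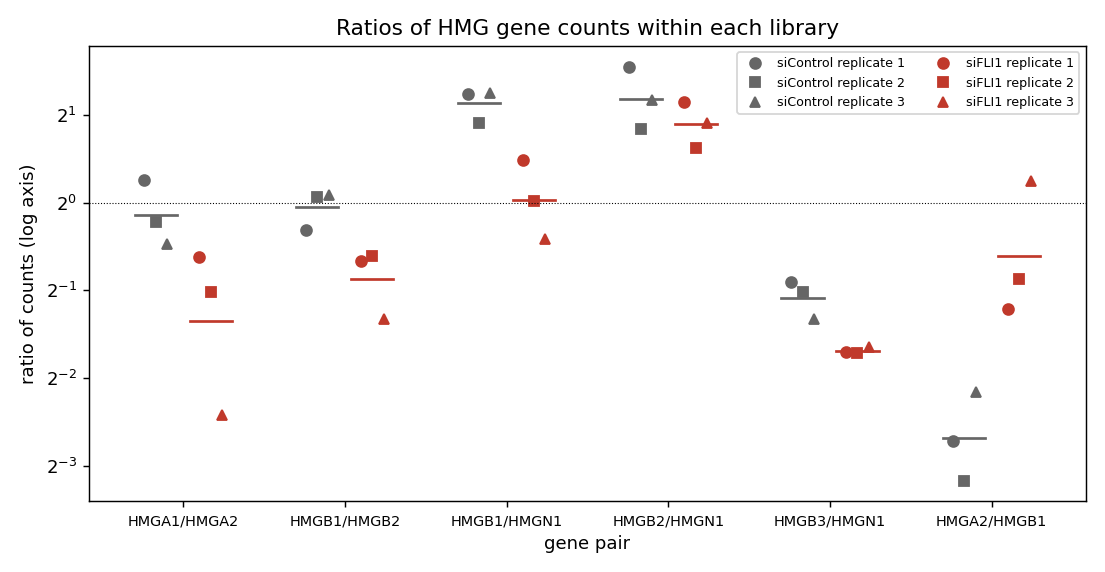
Ratio of counts of HMG genes within each library for 6 pairs (y axis, logarithmic, base 2). Grey is siControl, red is siFLI1 and bars are geometric means. HMGB2/HMGN1 is the pair drawn whose groups overlap, and HMGA2/HMGB1 is higher in siFLI1, at 0.432 to 1.19 against 0.111 to 0.225.

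Across the 6 libraries the members did not move as 1 group. On the log2 scale the Pearson correlation between members ran from −0.71 for HMGA2 with HMGB1 to 0.65 for HMGB2 with HMGB3. HMGB1 correlated at 0.63 with HMGB3 and at 0.44 with HMGB2, and HMGA1 with HMGA2 at −0.09. These are descriptions over 6 libraries that share the 2 groups and the depth of siFLI1 replicate 3. Among 3171 other genes with a mean of at least 50 CPM, those most like HMGB1 were HNRNPA1 (r = 0.988), KIAA1456 (0.987) and GNAI3 (0.984), with log2 fold changes of −0.68, −0.98 and −0.71. Most like HMGB2 were NOL11 (0.983), ARPP19 (0.969) and APEX1 (0.966), and most like HMGB3 were NPY1R (0.961), EZH2 (0.95) and CCDC47 (0.945). For HMGA2 they were OGFRL1 (0.987), ZFR (0.97) and MKLN1 (0.949), for HMGA1 AAGAB (0.971), SUSD6 (0.965) and ALDOA (0.963), and for HMGN1 HP1BP3 (0.972), GJA9-MYCBP (0.955) and HNRNPH3 (0.953).

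Genes that work beside the HMG proteins were followed in lists. Over all 9420 tested genes, for reading their counts, the median log2 fold change was 0.01, 4668 were negative, and an unadjusted p below 0.05 was reached by 4.13% in the lower and 6.62% in the higher direction. Linker histones, which compete with HMG proteins for nucleosomes, had 3 tested of 7 in the table, and 0 passed in edgeR, DESeq2 or limma-voom. All 3 had negative log2 fold changes: HIST1H1C −0.84 ± 0.31 (SE), at 81.6 ± 33.0 against 152 ± 29.9 CPM (SD, n = 3), H1FX −0.95 ± 0.61 and H1F0 −0.58 ± 0.63. HIST1H1C alone had an unadjusted p below 0.05 (edgeR adjusted p = 0.307), and its siFLI1 libraries, at 110.1, 89.0 and 45.5 CPM, lay below the controls, at 117, 169.8 and 168 CPM. Of 13 tested genes of the SET complex, which holds HMGB2, and of other HMGB partners in DNA repair and topology, 0 passed in any of the 3 tools and 0 had an unadjusted p below 0.05 in edgeR. Their median log2 fold change was −0.29, with 11 negative. The smallest p belonged to the topoisomerase TOP2B, at 0.53 ± 0.28 (SE). The histone chaperone ANP32B was at −0.36 ± 0.24.

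Other genes with an HMG box had 25 tested of 36, with 0 passing in edgeR, in DESeq2 or by limma-voom and a median log2 fold change of −0.21. An unadjusted p below 0.05 was reached by 1 lower and 1 higher gene. The lower one was SOX2, a stem cell factor, at 74.9, 58.5 and 56.2 CPM in siFLI1 and 234, 109.5 and 96.6 CPM in siControl replicates 1, 2 and 3, with −1.20 ± 0.35 (SE, edgeR adjusted p = 0.135). The higher one was SOX9, a factor of cartilage and neural crest, at 18.5, 28.6 and 29.5 CPM against 3.77, 12.9 and 8.55 CPM, with 1.57 ± 0.54 (SE, edgeR adjusted p = 0.248). Neither pair of groups overlapped, and siControl replicate 1 held the extreme control value in both. The FACT subunit SSRP1 followed at −0.67 ± 0.32.

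Proliferation genes are given because HMGB2 and HMGB3 are genes of dividing cells. Of 25 tested, 0 passed in edgeR, in DESeq2 or by limma-voom. Those with an unadjusted p below 0.05 were 4, all of them lower, where 4.13% of all tested genes were. The log2 fold change was below 0 in 24 of the 25, against 4668 of all 9420, and its median was −0.42. MCM4, a subunit of the replicative helicase, was at −1.06 ± 0.27 (SE; edgeR adjusted p = 0.0763), the mitotic kinase CDK1 at −0.62 ± 0.24 (0.336) and AURKB at −1.09 ± 0.44 (0.385). MKI67 was at −0.11 ± 0.30. Gene by gene, the siFLI1 libraries all lay below the controls for 6 of the 25 and all above for 0. Over all tested genes these shares were 7.71% and 8.93%. Summed levels of the list ran from 7587 to 8320 CPM in siFLI1 and from 8123 to 10756 CPM in siControl, so the sums overlapped. The part of these genes in the values of HMGB1, HMGB2 and HMGB3 was not tested.

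**Figure D4:**
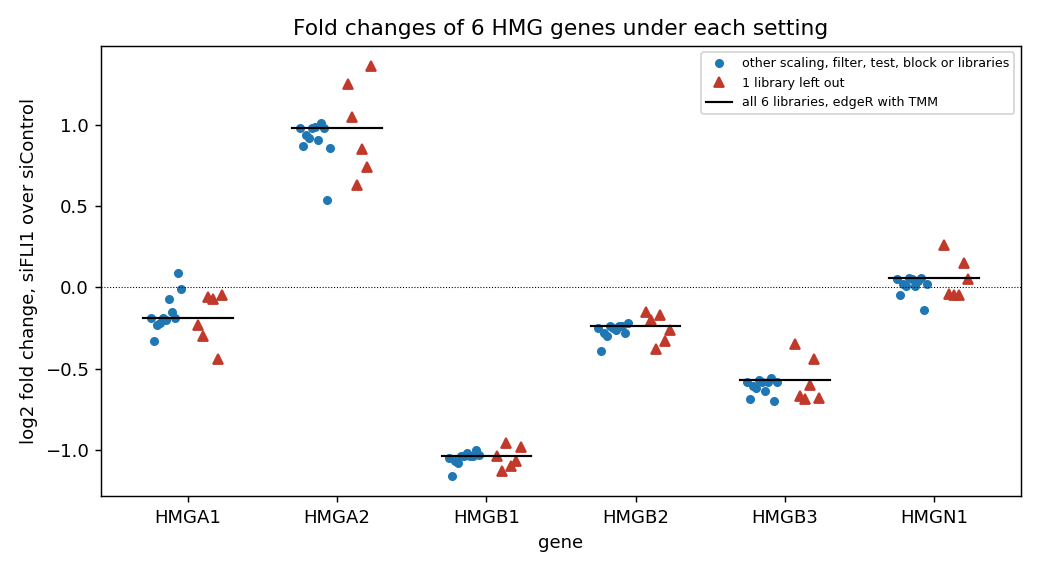
Log2 fold change of siFLI1 over siControl for 6 HMG genes under each setting: black lines are the fit of all 6 libraries, red triangles fits with 1 library left out, and blue points the other alternatives. HMGB1 stays between −1.16 and −0.96, HMGA2 between 0.54 and 1.36, and HMGA1 and HMGN1 lie on both sides of 0.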

How the data were processed

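The deposited table holds raw counts per gene over exons, 1 RefSeq transcript a gene, for 6 libraries made, per the labels' protocols, with a bulk form of MARS-seq that adds a molecular barcode. Per the submitters' processing notes, the tools were bcl2fastq, HISAT 0.1.5 and HOMER and the build hg38, without their roles. Collapsing of barcodes and use of strand in counting are not stated in the labels or header, so PCR copies may be among the counts, and intervals from counts cover counting error only. Rows with no gene name numbered 0.

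Genes were kept by filterByExpr (minimum count 10, minimum total 15), scaled by TMM and compared with edgeR 4.0.16 under R 4.3.3 (glmQLFit, robust=TRUE; glmQLFTest, two-sided) with Benjamini-Hochberg adjustment over 9420 genes. Standard errors came from the F statistic. No replicate pair agreed within sampling noise (lowest chi-square per df 7.48). Fits were tested on simulated data. Members, lists and alternatives were chosen with earlier results of these data known. Named genes were the members, the other HMGB and HMGN genes, up to 3 genes of smallest p in each list, FLI1, and for each member the 3 genes with the highest Pearson correlation of log2 CPM (prior count 2); MKI67, CD68, LIN28B, AGER, TLR4, some markers and ratios were added after seeing values. A gene that this rule names is not reported here. Alternatives were other scalings and filters, DESeq2 1.42.0, limma-voom 3.58.1, a replicate block, pseudogene counts added and each library left out. Library weights in limma-voom, and a fit leaving out both siFLI1 replicate 3 and siControl replicate 1, were chosen after seeing the data. Mitochondrially encoded genes were not analysed here. Sequences are from RefSeq (GRCh38.p14) and GENCODE 29 (GRCh38).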

Additional observations from a re-analysis of the deposited data

How the results depend on the processing

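The call of HMGB1 depended on the processing, and its direction did not. Its log2 fold change was −1.04 but no longer passed with a filter of 5 CPM in 3 libraries (edgeR adjusted p = 0.0547) or with the replicate block (0.149), so that 0 members were called lower in either. In fits without 1 library it ran from −1.13 to −0.96 with adjusted p from 0.0482 to 0.221, passing without siControl replicate 1 alone, and members called lower ran from 0 to 1. The 2 settings that left out both libraries that stood apart or weighted libraries called it (0.0281 and 0.0257). HMGA2 was positive, and HMGB2 and HMGB3 negative, in each alternative run (16, 16 and 17), with 0 calls. Adding pseudogene counts could alter only HMGB3 and HMGN2 of the members, and is not counted for the others. HMGA1 turned to 0.09 without both libraries, and ran from −0.44 to −0.05 without 1 library. HMGN1 turned to −0.05 under total counts and −0.14 without both libraries, and ran from −0.05 to 0.26 in fits without 1 library. Scaling by total counts moved the median of all genes from 0.01 to −0.12. Genes called higher, 126, were 306 with no low-count filter, 161 without both libraries, and ran from 64 to 121 without 1 library. Genes called lower, 11, were 17 under total counts, 62 with no low-count filter, 34 in DESeq2, 2 with the replicate block, 32 without both libraries and 28 with library weights, and ran from 1 to 7 without 1 library. Deviations of same-numbered libraries from their group means correlated at r = −0.026, −0.012 and −0.047. With 3 libraries in a group, such values cannot settle whether the numbers pair libraries. For the calls that changed, the cause was not tested. HMGN2, at 28 counts in all, was too low to test. Whether reads it shares with other genes were left out of the deposited counts was not tested.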

Other observations

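The let-7 axis, the genes that make, restrain or answer to the let-7 microRNAs, had 9 tested members of 13 in the table. In edgeR 0 passed, as in DESeq2 and limma-voom, and 1 gene, a higher one, had an unadjusted p below 0.05. The higher one was DIS3L2, an exonuclease that degrades uridylated let-7 precursors, at 12.3, 1.33 and 126 CPM in siFLI1 replicates 1, 2 and 3 and 1.62, 4.10 and 7.69 CPM in siControl. Its value in siFLI1 replicate 3, from 47 counts, stood far above the other 5. DROSHA, the nuclear microRNA processing enzyme, was at a log2 fold change of 0.54 ± 0.39 (SE) and the RNA-binding protein IGF2BP1 at −0.46 ± 0.40. LIN28B, the blocker of let-7 maturation, had 0, 1 and 12 counts in siFLI1 and 0, 0 and 3 in siControl replicates 1, 2 and 3, and was not tested.

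Receptors and adaptors for extracellular HMGB1 had 14 genes in the table, of which 3 were tested. In edgeR 0 passed, as in DESeq2 and limma-voom, and 0 had an unadjusted p below 0.05. MYD88, the adaptor of Toll-like receptors, was at −0.53 ± 0.52 on the log2 scale (SE), the receptor TLR2 at 0.41 ± 0.45 and the co-receptor LY96 at 0.20 ± 0.29. The receptor AGER had 15 counts in siFLI1 and 22 in siControl, and TLR4 had 1 and 7.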
